A study of Mus musculus with 12 samples.

Results

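The AP-1 family and Atf3 made up 8 of the 24421 genes in the count table: Fos, Fosb, Fosl1 and Fosl2 of the FOS group, Jun, Junb and Jund of the JUN group, and Atf3. They were chosen by name, as the genes of the FOS and JUN subunits of the transcription factor AP-1 together with Atf3. Earlier results of these data were known when they were chosen. All 8 passed the filter on low counts that 15220 genes passed. The study asked how the loss of the transcription factors TFEB and TFE3 alters the response of mouse embryonic fibroblasts (MEFs) to DNA damage. RNA was sequenced in 12 libraries from 4 groups of 3. Etoposide, a topoisomerase inhibitor that leaves breaks in DNA, was given at 100 µM for 8 hr. The first pair of groups was Null MEFs, the labels' name for cells with both genes intact, without treatment (Null control) and with etoposide (Null etoposide). The second pair was MEFs in which CRISPR-Cas9 had been used to knock out TFEB and TFE3 (DKO), without treatment (DKO control) and with etoposide (DKO etoposide). The labels call the control libraries untreated, while the study's methods name a DMSO vehicle. All 4 groups came from immortalized MEFs with 1 line per genotype, so the knockout and any other difference between the lines cannot be told apart. The study states that its MEFs were immortalized with SV40, which can alter how stable p53 is and so confound results. Nothing in the labels says that the replicates came from separate cultures, and if they did not, the p-values measure only the spread between these samples, which may be technical.

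Between 45577023 and 104120871 counts fell on genes in each library, and all levels are given as CPM, a gene's counts relative to the library's counts on genes after scaling by the trimmed mean of M values (TMM). At this depth the scarcest member, Fosb, had 418 to 1749 counts in every library, and the other 7 had more. The spread between replicates was larger than counting error alone in each group. Tests came from 1 edgeR quasi-likelihood fit of all 12 libraries, with Benjamini-Hochberg adjustment over the 15220 genes and a threshold of 0.05. Differences are given as log2 fold changes with their standard error (SE), and group means with the standard deviation (SD, n = 3).

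AP-1 is a dimer of basic leucine zipper proteins in which a JUN protein pairs with itself or with a FOS protein and binds short DNA sites in promoters and enhancers. Several of its genes are immediate early genes, transcribed within minutes of growth factors or stress, and in fibroblasts the factor is known for its part in proliferation, matrix remodelling and the response to radiation and other DNA damage. ATF3 is a related stress-induced protein that pairs with JUN proteins and can repress or activate its targets.

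The labels were first checked against the targeted genes. Tfeb had 38.9, 39.2 and 42.1 CPM in the Null control libraries and 11.4, 10.2 and 10.4 CPM in the Null etoposide libraries. In DKO MEFs it had 4.60, 6.09 and 4.68 CPM without and 1.92, 1.61 and 2.20 CPM with etoposide. Every DKO library lay below every Null library of the same treatment, and the difference was -2.94 (SE 0.09, adjusted p = 1.05e-14) without etoposide. Tfe3 had 115, 109.9 and 114 CPM in Null control, 94.1, 93.1 and 91.0 in DKO control, 68.5, 69.6 and 68.1 in Null etoposide, and 70.7, 71.2 and 63.4 in DKO etoposide. Transcripts of Tfe3 were thus still present in DKO MEFs, lower by a small margin without etoposide (-0.29, SE 0.04, adjusted p = 8.68e-06) and overlapping with Null MEFs after it (-0.01, SE 0.04, adjusted p = 0.872). The 9 fibroblast markers differed between the lines: Thy1 had 129 to 366 counts in the Null and 1 to 21 in the DKO libraries, while without etoposide the mean levels of the other 8 were higher in DKO MEFs, as for Pdgfra (20.9 CPM in Null and 197 in DKO control) and Col3a1 (194 and 1231). After etoposide Vim was the lower one in DKO MEFs as well (1632 CPM in Null and 801 in DKO), and the other 7 were again higher there.

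In Null MEFs, etoposide raised 5 members (Fos, Fosb, Jun, Junb and Atf3) and lowered Fosl1 and Fosl2, in a comparison in which 42.3% of all tested genes rose and 37.2% fell. Fosl1 lost that call with library size as the only scaling, under which Jund passed the threshold. In DKO MEFs the same treatment raised 2 members, Fos and Jund, and lowered the other 6, against 43.7% of all genes that rose and 31.5% that fell, and Jun lost its call with library size alone. Without etoposide, 5 members (Fosb, Fosl2, Jun, Junb and Atf3) were higher in DKO than in Null MEFs and Fosl1 and Jund were lower, beside 33.3% of all genes higher and 33.4% lower. After etoposide all 8 members were lower in DKO MEFs and 0 were higher, beside 36.6% of all genes lower and 37.5% higher. The test of the difference between the responses (the genotype by etoposide interaction) passed for all 8: the response in DKO MEFs was more negative for 7 members, and more positive for Jund, beside 24.4% of all genes lower and 29.6% higher. Shares of this size mean that passing the threshold was common among all genes. In bulk samples, fewer cells of a type and less RNA per cell cannot be told apart.

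**Figure D1:**
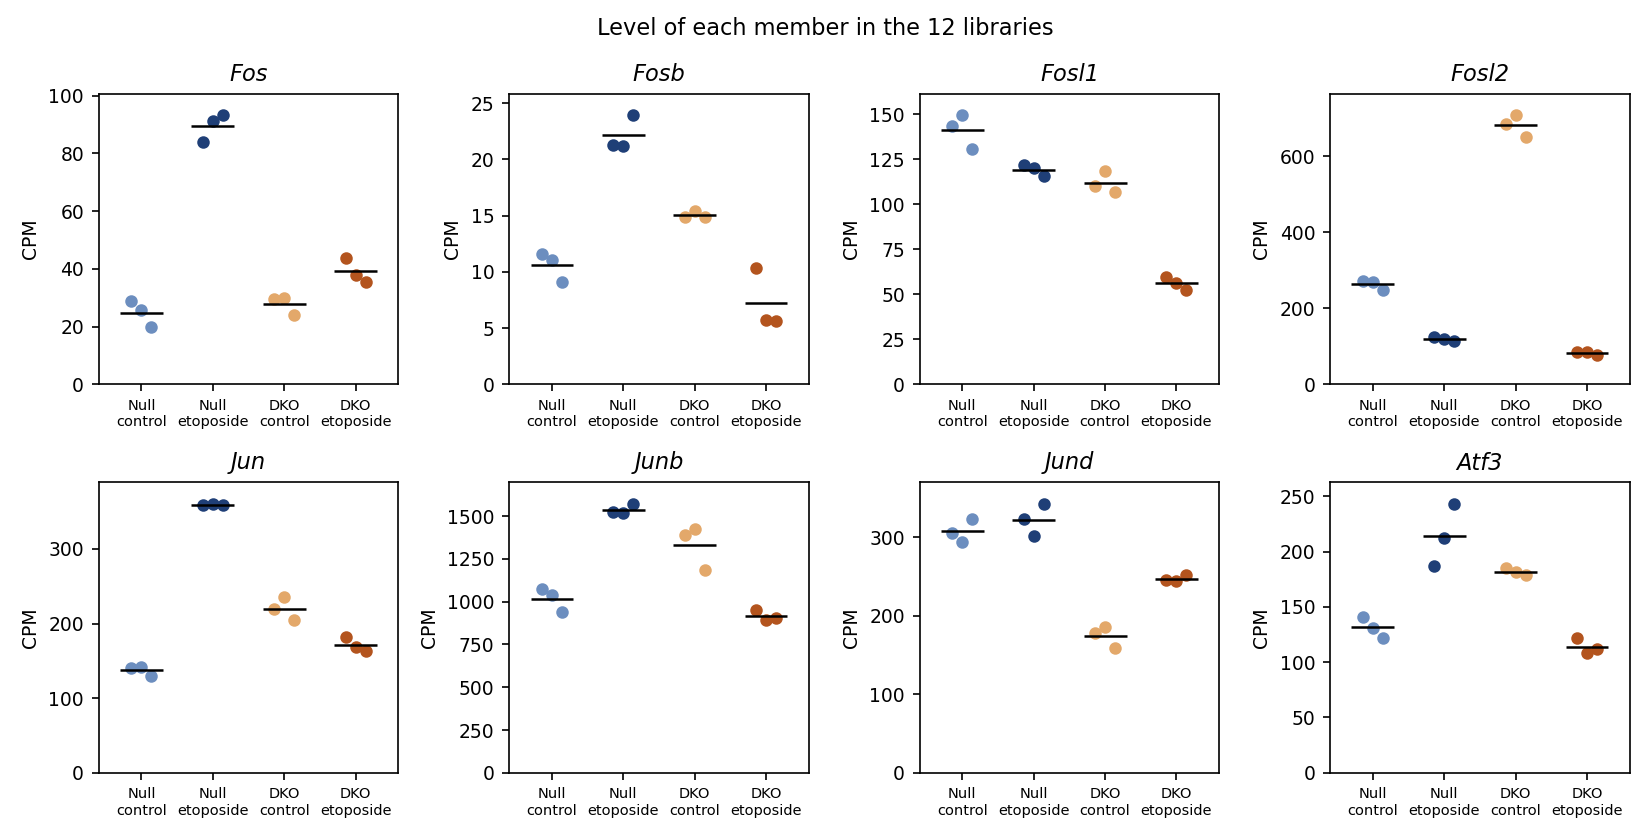
Level of each of the 8 genes in every library: the vertical axis of each panel is CPM on its own linear scale, the horizontal axis holds the 4 groups, each point is 1 library (3 per group) and each short line is the group mean. For Fos the DKO etoposide points lie at 35.4 to 43.9 CPM and the Null etoposide points at 83.8 to 93.2 CPM. In the Jund panel the DKO control points, at 158 to 186 CPM, are the lowest.

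Fos encodes the classical FOS subunit, which binds DNA only as a partner of a JUN protein. The gene spans 3.38 kb with 4 exons (chr12:85473890-85477273, plus strand, GRCm38). Its level was 28.9, 25.6 and 19.99 CPM in the Null control libraries and 83.8, 91.1 and 93.2 CPM after etoposide. In DKO MEFs the values were 29.5, 29.9 and 23.8 CPM without and 43.9, 38.0 and 35.4 CPM with etoposide. The Null etoposide libraries were the highest, the DKO etoposide libraries came next without overlap, and the untreated libraries of the genotypes overlapped. Etoposide raised Fos 3.59-fold in Null MEFs (log2 1.84, SE 0.11, adjusted p = 2.99e-11). In DKO MEFs the rise was 0.48 (SE 0.11, adjusted p = 0.000699), and 0.76 with library size alone. The 2 responses differed by -1.36 (SE 0.15, adjusted p = 6.60e-07), and after etoposide the DKO level was below the Null level by -1.20 (SE 0.10, adjusted p = 9.37e-09). The untreated genotypes differed by 0.16 (SE 0.11, adjusted p = 0.213), short of the threshold, and the value rested on single libraries: it was 0.29 (adjusted p = 0.0353) without replicate 1 of Null control and 0.03 (adjusted p = 0.827) without replicate 3.

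Promoter windows are shown for Fos, the member with the largest rise, and for Fosb, Jun, Junb and Atf3, whose changes with etoposide had the same signs; RefSeq (GRCm38.p6) gave a window for 7 of the 8 members, but not for Fosl1. Each window holds 300 bases, 250 before and 50 after a RefSeq transcript start. The windows were searched on both strands for the AP-1 site TGANTCA, the cyclic AMP response element (CRE) TGACGTCA, the E-box CACGTG of the kind that TFEB and TFE3 bind, and the CArG box bound by serum response factor. None of the 7 windows held any of these 4, which occur in 7.81%, 1.79%, 7.15% and 1.63% of all 32851 windows in that order. Sequence more than 250 bases upstream of these starts was not searched, so the lack of a match says nothing of sites further away. After the windows had been read, 3 further motifs were searched: TGACNTCA, which includes the CRE (8.83% of all windows), TGACG, the first bases of the CRE and contained in it (20.8%), and TATAAA (13.6%). The Fos window (chr12:85473640-85473939, plus strand) held TGACG at -129 and -66 from the start and TATAAA at -33. The Fosb window (chr7:19309996-19310295, minus strand) held TGACG at -60. Capitals mark these matches, which are descriptions of the letters only.
Fos: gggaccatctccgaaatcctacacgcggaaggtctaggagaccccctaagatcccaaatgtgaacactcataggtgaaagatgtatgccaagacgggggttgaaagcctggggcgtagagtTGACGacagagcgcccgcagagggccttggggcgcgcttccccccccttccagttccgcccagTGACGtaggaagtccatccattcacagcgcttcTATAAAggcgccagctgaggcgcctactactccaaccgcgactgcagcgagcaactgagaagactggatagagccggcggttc
Fosb: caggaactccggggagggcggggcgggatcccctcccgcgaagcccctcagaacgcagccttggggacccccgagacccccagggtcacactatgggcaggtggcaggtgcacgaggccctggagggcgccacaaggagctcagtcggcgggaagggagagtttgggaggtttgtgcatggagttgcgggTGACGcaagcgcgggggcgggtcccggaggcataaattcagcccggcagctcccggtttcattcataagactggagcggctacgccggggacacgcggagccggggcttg

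Fosb encodes a second FOS protein, whose short splice form lacks the activating end. The gene spans 7.36 kb (chr7:19302696-19310051, minus strand) and was the scarcest member. Null control libraries had 11.6, 11.05 and 9.11 CPM and Null etoposide libraries 21.3, 21.2 and 23.9 CPM. DKO control libraries had 14.9, 15.4 and 14.9 CPM, and DKO etoposide libraries 10.4, 5.71 and 5.66 CPM. Etoposide moved Fosb in opposite directions: the Null etoposide libraries were the highest of all, and the DKO etoposide libraries lay below all DKO control libraries, with replicate 1 well above the other 2. The rise in Null MEFs was 1.06 (SE 0.14, adjusted p = 2.05e-06) and the change in DKO MEFs -1.13 (SE 0.15, adjusted p = 4.24e-06), which was -1.43 without that replicate. The interaction was -2.18 (SE 0.21, adjusted p = 1.00e-07), the most negative of the 8. Untreated DKO MEFs exceeded Null MEFs by 0.51 (SE 0.14, adjusted p = 0.00514), a call that limma-trend did not make (0.52, adjusted p = 0.0524). After etoposide the difference was -1.68 (SE 0.15, adjusted p = 1.38e-08), and -1.98 without DKO etoposide replicate 1.

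Fosl1 encodes FRA1, a FOS protein without a strong activating end that is abundant in migrating and transformed cells. The gene spans 8.40 kb (chr19:5447547-5455946, plus strand), and 57.2% of its exon bases, 1163, are shared with exons of Ccdc85b on the other strand. The study's methods name a stranded library kit, but the strand setting of the read counting was not stated. How reads from those bases were counted is thus not known. Ccdc85b had mean levels of 29.95, 26.7, 12.2 and 12.5 CPM in Null control, DKO control, Null etoposide and DKO etoposide. Fosl1 itself had 144, 149.7 and 131 CPM in Null control and 122, 120.0 and 116 CPM in Null etoposide. In DKO MEFs it had 110.4, 119 and 107 CPM without and 59.5, 56.6 and 52.3 CPM with etoposide. The DKO etoposide libraries stood far below all others, and the remaining differences were small but without overlap within each comparison. In DKO MEFs etoposide lowered Fosl1 by a log2 change of -1.002 (SE 0.05, adjusted p = 2.21e-11). The change in Null MEFs was -0.25 (SE 0.05, adjusted p = 0.000426), which was -0.16 with a stricter filter on low counts and, with library size alone, -0.08 (adjusted p = 0.190). Fosl1 was lower in DKO than in Null MEFs both without (-0.34, SE 0.05, adjusted p = 2.38e-05) and with etoposide (-1.09, SE 0.05, adjusted p = 6.37e-12), and the interaction was -0.76 (SE 0.08, adjusted p = 2.00e-07).

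Fosl2 encodes FRA2, the other FOS protein without a strong activating end, which has a known part in collagen and bone matrix genes. It has the longest span of the FOS group, 22.0 kb (chr5:32135801-32157842, plus strand), and its RefSeq window, which begins downstream of the GENCODE start, held none of the 7 motifs. Null control libraries had 271, 270.2 and 247 CPM, and Null etoposide libraries 125, 119 and 115 CPM. DKO control libraries had 685, 709 and 651 CPM, and DKO etoposide libraries 85.9, 84.9 and 76.1 CPM. DKO MEFs thus held both the highest libraries, those without treatment, and the lowest, those with etoposide, and no groups overlapped. Without etoposide Fosl2 was 2.59-fold higher in DKO MEFs (log2 1.37, SE 0.05, adjusted p = 8.77e-14), and after etoposide the sign was the opposite (-0.54, SE 0.05, adjusted p = 3.29e-08). Etoposide lowered it 8.29-fold in DKO MEFs (log2 -3.05, SE 0.05, adjusted p = 5.51e-18), the largest change of any member in either genotype. In Null MEFs the change was -1.13 (SE 0.05, adjusted p = 7.40e-13). The interaction was -1.92 (SE 0.07, adjusted p = 6.87e-13).

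Jun encodes the JUN subunit with the strongest activating end, a substrate of the JNK kinases and an inducer of its own gene. It is a gene of 1 exon and 3.19 kb (chr4:95049034-95052222, minus strand), of which 7.28% is shared with the antisense gene Junos. Jun had 141, 142 and 130.3 CPM in Null control and 358, 361 and 359 CPM in Null etoposide. The DKO values were 219.6, 235 and 205 CPM without and 182, 169 and 163 CPM with etoposide. Null etoposide libraries were the highest and lay within 3 CPM of each other, and DKO libraries lay between these and the Null control libraries in both treatments. Etoposide raised Jun 2.61-fold in Null MEFs (log2 1.38, SE 0.05, adjusted p = 3.90e-14). It lowered Jun in DKO MEFs by a log2 change of -0.36 (SE 0.05, adjusted p = 3.73e-06), which with library size alone was -0.09 (adjusted p = 0.106). Untreated DKO MEFs had more Jun than Null MEFs (0.68, SE 0.05, adjusted p = 1.41e-09), and treated DKO MEFs had less (-1.07, SE 0.05, adjusted p = 2.01e-12). The interaction was -1.75 (SE 0.07, adjusted p = 1.60e-12).

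Junb encodes a JUN protein with weaker activation that can oppose JUN at growth genes. Its gene spans 4.24 kb (chr8:84974484-84978718, minus strand) and shares 7.52% of its exon bases with Prdx2 on the other strand. Its level was 1074, 1038 and 938 CPM in Null control and 1527, 1516 and 1574 CPM in Null etoposide. In DKO MEFs it was 1389, 1425 and 1188 CPM without and 950.4, 891 and 904 CPM with etoposide. As for Jun, the treated libraries were the higher ones in Null MEFs and the lower ones in DKO MEFs, but the lowest group was DKO etoposide, which overlapped with Null control, where for Jun it was Null control. Changes with etoposide were 0.60 (SE 0.06, adjusted p = 4.40e-08) in Null and -0.54 (SE 0.06, adjusted p = 2.12e-07) in DKO MEFs, the latter -0.27 with library size alone. DKO against Null MEFs gave 0.39 (SE 0.06, adjusted p = 1.18e-05) without and -0.75 (SE 0.06, adjusted p = 2.62e-09) with etoposide, and the interaction was -1.14 (SE 0.08, adjusted p = 3.11e-09). The window of Jun (chr4:95052173-95052472, minus strand) held TGACATCA, a form of TGACNTCA, at -45, and that of Junb (chr8:84978699-84978998, minus strand) held TGACG at -106 and TATAAA at 0. The GENCODE start of Junb lies 30 bases downstream of the RefSeq start from which these positions are counted. Both windows are printed as the promoters of the JUN genes that rose in Null and fell in DKO MEFs, a fall that Jun did not keep with library size alone.
Jun: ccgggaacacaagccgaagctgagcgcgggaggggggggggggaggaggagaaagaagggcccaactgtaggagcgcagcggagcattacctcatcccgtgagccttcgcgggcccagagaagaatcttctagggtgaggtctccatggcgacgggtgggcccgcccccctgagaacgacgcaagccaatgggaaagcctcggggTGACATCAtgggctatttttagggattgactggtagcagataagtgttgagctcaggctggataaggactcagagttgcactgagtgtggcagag
Junb: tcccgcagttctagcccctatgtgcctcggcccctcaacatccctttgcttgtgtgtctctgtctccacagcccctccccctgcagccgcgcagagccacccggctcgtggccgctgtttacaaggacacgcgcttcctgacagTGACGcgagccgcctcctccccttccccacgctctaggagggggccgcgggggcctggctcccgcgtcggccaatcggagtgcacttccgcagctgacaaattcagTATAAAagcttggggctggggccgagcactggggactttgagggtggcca

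Jund encodes the JUN protein that resting cells express and that slows growth in fibroblasts. It is a gene of 1 exon and 1.67 kb (chr8:70698949-70700616, plus strand), and 52.6% of its bases, 877, are shared with the antisense gene Gm11175. No gene of that name was among those counted, whereas Ccdc85b, which overlaps Fosl1, was. As the strand setting was not stated, whether reads from the antisense strand were counted for Jund is not known. The RefSeq window for it, 1210 bases upstream of the GENCODE start, held none of the 7 motifs. Jund had 305, 295 and 323 CPM in Null control and 323, 302 and 343 CPM in Null etoposide. DKO libraries had 178, 186 and 158 CPM without and 246, 245 and 252 CPM with etoposide. The Null groups overlapped, and both DKO groups lay below them, the untreated one the lowest. Untreated DKO MEFs had less Jund than Null MEFs (-0.82, SE 0.05, adjusted p = 3.60e-10), and the gap after etoposide was -0.38 (SE 0.05, adjusted p = 5.22e-06). Etoposide raised Jund in DKO MEFs by 0.51 (SE 0.05, adjusted p = 1.99e-07), and by 0.78 with library size alone. In Null MEFs the change of 0.07 (SE 0.05, adjusted p = 0.249) did not pass, but it passed with DESeq2 (0.11, adjusted p = 0.0442), library size alone (0.24, adjusted p = 0.000557) and a stricter filter (0.15, adjusted p = 0.0151). The interaction, 0.44 (SE 0.08, adjusted p = 0.000101), was the only positive one among the 8 members.

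Atf3 encodes a protein of the ATF group that stress, p53 and DNA damage are known to induce. It has the longest span of the 8 genes, 47.7 kb (chr1:191170296-191218039, minus strand). Its values were 141, 131 and 122 CPM in Null control and 187, 212 and 243 CPM in Null etoposide. DKO control libraries had 185, 181 and 178 CPM, and DKO etoposide libraries 122, 108 and 112 CPM. Null etoposide libraries were the highest and DKO etoposide libraries the lowest, and no groups overlapped, although the lowest Null control library lay next to the highest DKO etoposide library. Etoposide raised Atf3 by 0.70 (SE 0.07, adjusted p = 8.33e-08) in Null MEFs and changed it by -0.67 (SE 0.07, adjusted p = 2.16e-07) in DKO MEFs, which was -0.40 with library size alone. The genotypes differed by 0.47 (SE 0.07, adjusted p = 1.82e-05) without etoposide and by -0.91 (SE 0.07, adjusted p = 3.39e-09) after it, and the interaction was -1.38 (SE 0.10, adjusted p = 4.31e-09). The RefSeq window (chr1:191183284-191183583, minus strand) lies at the start of a shorter transcript within the span, and it held TGACG at -7 on the opposite strand, where the printed strand reads CGTCA.
Atf3: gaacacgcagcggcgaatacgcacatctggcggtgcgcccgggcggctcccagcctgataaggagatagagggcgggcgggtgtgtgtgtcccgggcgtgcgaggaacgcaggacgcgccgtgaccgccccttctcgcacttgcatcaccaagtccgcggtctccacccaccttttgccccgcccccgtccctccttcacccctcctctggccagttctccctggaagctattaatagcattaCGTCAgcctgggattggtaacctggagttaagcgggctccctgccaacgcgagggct

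Set side by side, the members' median log2 fold change with etoposide was 0.65 in Null MEFs and -0.61 in DKO MEFs, beside 0.07 and 0.14 over all tested genes. With library size alone the members' medians were 0.82 and -0.33. DKO against Null MEFs gave a median of 0.43 over the members without etoposide and -0.99 after it, beside -0.02 and -0.00 over all genes. For the interaction the members' median was -1.37 and that of all genes 0.05. Jun, Junb, Fosb and Atf3 shared one order of signs, up in Null and down in DKO MEFs with etoposide, higher in untreated and lower in treated DKO MEFs, with the exceptions that the fall of Jun was not called with library size alone, nor the higher Fosb of untreated DKO MEFs with limma-trend. These comparisons share libraries in pairs, so no correlation between them is given. Library size alone moved the median of all genes by 0.17 in Null and 0.27 in DKO MEFs with etoposide, by -0.12 between the untreated genotypes and by 0.10 in the interaction.

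**Figure D2:**
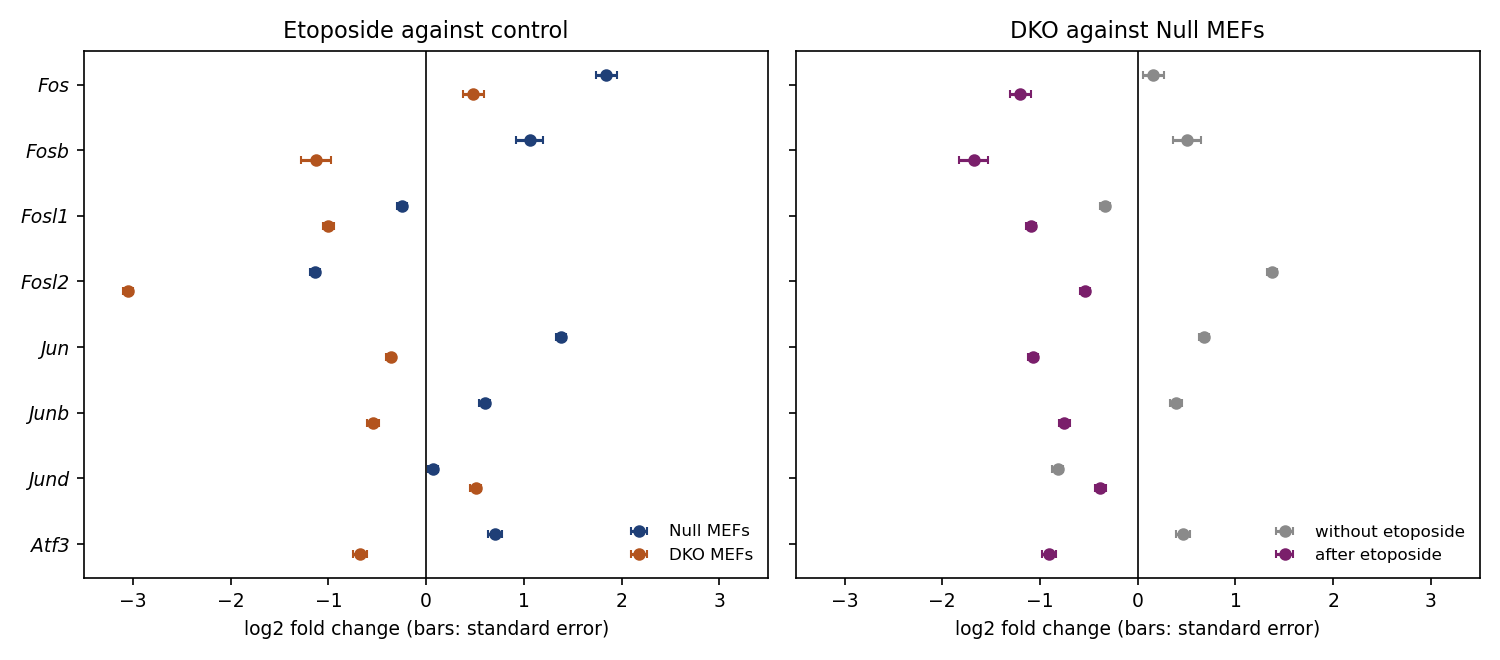
Log2 fold change of the 8 genes, with bars of 1 SE on each side: the vertical axis names the genes, and the horizontal axis is the log2 fold change. One panel compares etoposide with control in Null and in DKO MEFs, and the other compares DKO with Null MEFs without and after etoposide. In the first panel Fosl2 in DKO MEFs has the lowest value at -3.05 and Fos in Null MEFs the highest at 1.84. In the second all 8 points after etoposide lie to the left of 0, from -1.68 for Fosb to -0.38 for Jund.

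Gene span differed within the family, and the changes of all tested genes differed by span. In Null MEFs the median change with etoposide was 0.20 over genes under 5 kb, the class of Fos, Jun, Junb and Jund, and -0.26 over genes above 50 kb, a class with no member. In DKO MEFs these medians were 0.24 and -0.15. Fosb and Fosl1 belong to the class of 5 to 20 kb, with medians of 0.19 and 0.24, and Fosl2 and Atf3 to that of 20 to 50 kb, with 0.04 and 0.13. In DKO MEFs, Jun (-0.36, with the reservation given above) and Junb (-0.54) lay on the other side of 0 from their class median. Fosb (-1.13), Fosl1 (-1.002), Fosl2 (-3.05) and Atf3 (-0.67) did so too, while Fos (0.48) and Jund (0.51) lay on the same side. In Null MEFs, Fosl1 (-0.25) and Fosl2 (-1.13) lay on the other side. Fos (1.84), Jun (1.38), Junb (0.60), Jund (0.07, not past the threshold), Fosb (1.06) and Atf3 (0.70) lay on the same side. Class medians are given with TMM only, and library size alone moved the median of all genes in DKO MEFs by 0.27. The part of span in these changes was not tested.

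Levels can be compared between genes only per length, and CPM per kb of exon was used for the order of the members. In Null control, Junb had the highest mean at 442 CPM per kb, followed by Jund at 184, Fosl1 at 69.6, Atf3 at 61.0, Jun at 43.2, Fosl2 at 27.1, Fos at 10.5 and Fosb at 1.69. Fosl1 and Atf3 overlapped, and no other neighbours in that order did. DKO control kept Junb (579.7) and Jund (104) at the top, but Atf3 (84.3) and Fosl2 (70.4) stood above Jun (69.0) and Fosl1 (55.1), with Fos (11.8) and Fosb (2.41) last. There the overlapping neighbours were Fosl2 and Jun. After etoposide Null MEFs had Junb at 669, Jund at 193, Jun at 113, Atf3 at 99.5, Fosl1 at 58.7, Fos at 38.0, Fosl2 at 12.4 and Fosb at 3.54 CPM per kb. The order in DKO etoposide was the same, at 398, 148, 53.7, 52.9, 27.6, 16.6, 8.50 and 1.16, and in both groups the overlap was between Jun and Atf3. Fos was thus above Fosl2 per length in both etoposide groups and below it in both control groups. With the longest transcript as the length, Atf3 (57.4) stood above Jun (53.7) in DKO etoposide, again with overlap. Fosl2 (104) stood above Atf3 (91.6) in DKO control, where Fosl2 overlapped with Jund. All other places were the same, but in Null control Jun and Fosl2 now overlapped as well. More than 50% of the exon bases of Fosl1 and Jund are shared with genes on the other strand. Ccdc85b, which overlaps Fosl1, was among the genes counted, and no gene named Gm11175, which overlaps Jund, was. Whether reads from the shared bases of Fosl1 were counted is not known. The level per length of Fosl1, and every order, share and ratio that uses it, hold only if those reads were counted. For Jund, whether reads from the antisense strand were counted with it is not known, which limits its level, orders, shares and ratios too.

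The summed level of the FOS group was 109 ± 7.89 CPM per kb (SD, n = 3) in Null control, 139.7 ± 7.20 in DKO control, 113 ± 0.732 in Null etoposide and 53.9 ± 4.45 in DKO etoposide, the last below all other libraries. That of the JUN group was 669 ± 26.1, 753 ± 68.2, 975 ± 25.1 and 599.8 ± 15.7 in the same order. The ratio of JUN to FOS levels was thus 6.15 ± 0.270 in Null control, 5.38 ± 0.246 in DKO control, 8.66 ± 0.257 in Null etoposide and 11.2 ± 0.748 in DKO etoposide, and no groups overlapped. Within the FOS group, Fosl1 held the largest share in Null control (63.9% ± 1.05), Null etoposide (52.1% ± 1.43) and DKO etoposide (51.3% ± 1.06), and 39.4% ± 0.571 in DKO control. Fosl2 led in DKO control with 50.4% ± 0.467, against 24.9% ± 0.561 in Null control, 10.98% ± 0.505 in Null etoposide and 15.8% ± 0.581 in DKO etoposide. Fos held 9.64% ± 1.19 in Null control and 8.43% ± 0.681 in DKO control, and 33.7% ± 1.77 and 30.8% ± 0.976 after etoposide, so that the treated groups lay well above the untreated ones in both genotypes. Fosb held the smallest share in each group, at 1.55%, 1.73%, 3.15% and 2.13%. Junb held most of the JUN group everywhere: 66.0% ± 2.13 in Null control, 76.96% ± 0.519 in DKO control, 68.6% ± 0.474 in Null etoposide and 66.3% ± 0.513 in DKO etoposide. Jund held 27.6%, 13.9%, 19.8% and 24.7% in that order of groups, and Jun 6.45%, 9.17%, 11.6% and 8.94%. These shares describe RNA per exon length and say nothing of protein.

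**Figure D3:**
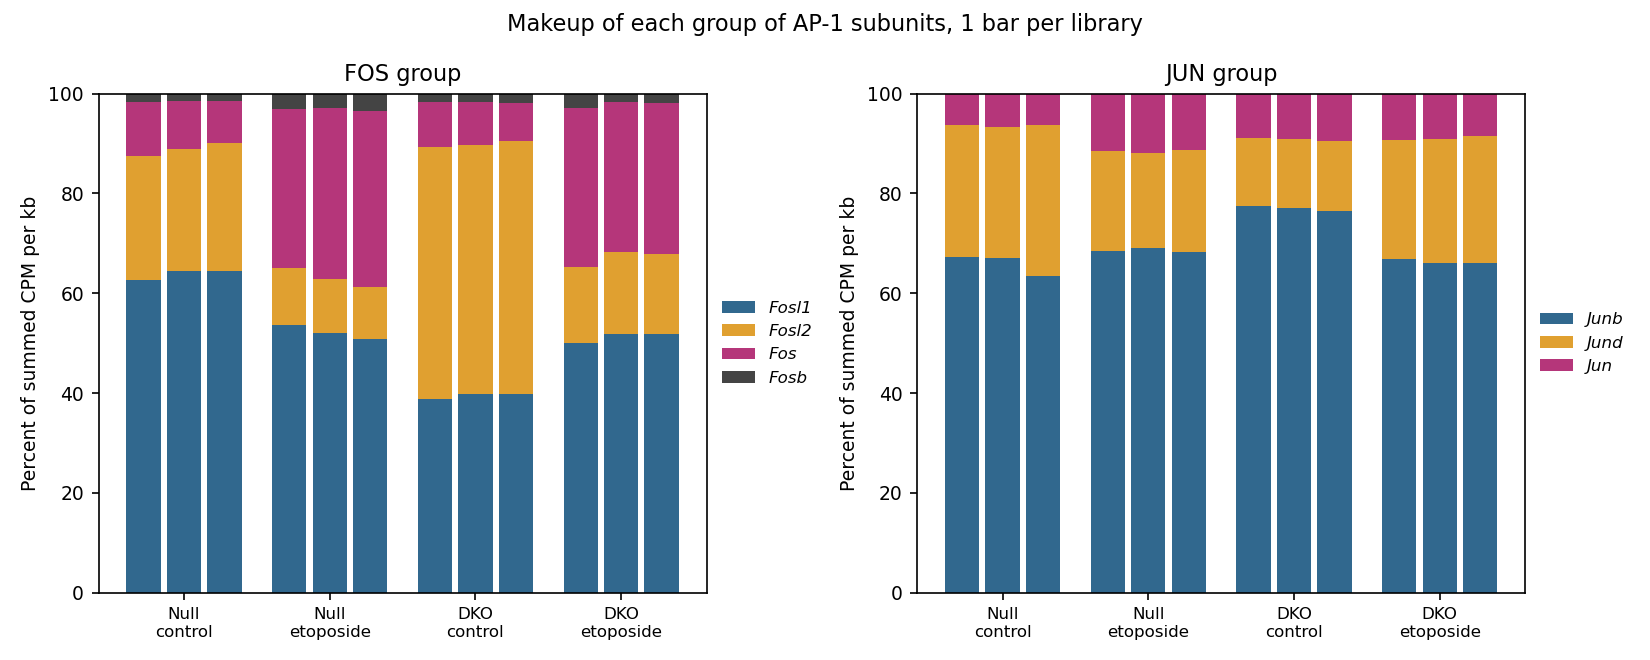
Share of each gene in the summed level of its group: each bar is 1 of the 12 libraries, ordered by group along the horizontal axis, the vertical axis is the percent of the summed CPM per kb of exon, and the coloured segments are the genes of the FOS group in one panel and of the JUN group in the other. Fosl2 fills 50.4% of the FOS bars in DKO control on average and 10.98% in Null etoposide, and Junb fills over 60% of every JUN bar.

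The genes whose levels followed each member most closely were ranked by Pearson's r of log2 CPM over the 12 libraries among 9352 genes, as a description in which the libraries are shared by all genes. Fos was most like Evpl (r = 0.986), Zfyve21 (0.985) and Mastl (0.985), and Evpl had mean levels of 0.3005 CPM in Null control, 0.332 in DKO control, 82.7 in Null etoposide and 2.03 in DKO etoposide. Fosb was most like Psd3 (0.962), Sorbs3 (0.953) and Lxn (0.952). For Fosl1 these genes were Kif13a (0.987), Prkar2b (0.983) and Rab32 (0.982). Those nearest to Fosl2 were Spsb1 (0.999), Elk3 (0.997) and Ppp1r18 (0.996), of which Elk3, a partner of serum response factor, had 141, 263, 80.3 and 65.6 CPM in the same order of groups. Jun was nearest to Mafk (0.989), Mmp11 (0.983) and Aldh2 (0.982), and Mafk, a small MAF protein, had 85.0, 122, 204 and 103 CPM. Junb and Atf3 named each other (0.968), Junb together with Gas1 (0.967) and Tubb6 (0.961), and Atf3 with Tubb6 (0.978) and Cast (0.961). Jund was most like H2-Q1 (0.987), Ndufv1 (0.986) and Cisd3 (0.984).

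Markers of other cell types had lower summed levels than those of fibroblasts, and the sum of every list moved with etoposide in both genotypes. The 7 macrophage markers summed to 18.0 CPM in Null control, 8.25 in DKO control, 78.6 in Null etoposide and 14.1 in DKO etoposide, so they were highest in the group where Fos, Fosb, Jun, Junb and Atf3 were highest. Cd14 was the most abundant of them, at 63.6 to 65.0 CPM in Null etoposide, and Cd68 followed with means of 1.44, 1.56, 11.96 and 3.08 CPM in the same order. Adgre1 had 0 to 6, Itgam 0 to 38, Ptprc 0 to 41, Lyz2 0 to 69 and Csf1r 14 to 69 counts in any library, and the mean levels of these 5 did not all follow the sum: Lyz2, Csf1r and Ptprc were highest in Null etoposide, Itgam in DKO etoposide (0.390 against 0.347 CPM in Null etoposide), and Adgre1 was level between them. The part of the macrophage list in the result was not tested. The 5 epithelial markers summed to 1.11, 0.784, 2.89 and 1.74 CPM and the 4 endothelial markers to 0.130, 0.133, 2.54 and 1.10 CPM. Both sums were higher in the etoposide libraries of each genotype and highest in Null etoposide. Not every epithelial marker followed its sum: Cdh1 was highest in DKO etoposide (1.26 CPM against 1.02 in Null etoposide). Krt18 was lower with etoposide in Null MEFs (0.192 CPM against 0.296 in Null control). The sum of the 9 fibroblast markers was lower with etoposide, at 7122, 11743, 3991 and 5195 CPM, although Thy1 was not in DKO MEFs, and the part of these lists in the result was not tested either.

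Gene lists around the family are given with their median log2 fold change, which over all tested genes was 0.07 in Null and 0.14 in DKO MEFs with etoposide, -0.02 and -0.00 between the genotypes without and after it, and 0.05 in the interaction. Counts in every list below stand beside the shares of all tested genes past the threshold. With etoposide, 42.3% were higher and 37.2% lower in Null MEFs, and 43.7% and 31.5% in DKO MEFs. Between the genotypes 33.3% were higher and 33.4% lower without etoposide, and 37.5% and 36.6% after it. In the interaction the shares were 29.6% and 24.4%. Other basic leucine zipper genes that can pair with AP-1 proteins were 14. Of these, 13 were tested, and Batf, with 0 to 11 counts, was not. In Null MEFs etoposide raised 4 and lowered 8 of these 13 genes (median -0.28), and with library size alone 4 rose and 7 fell (median -0.12). Among the changes were Crem (1.36, SE 0.08), Mafk (1.26, SE 0.04), Jdp2 (-2.00, SE 0.04) and Maf (-1.81, SE 0.08). In DKO MEFs 3 rose and 8 fell (median -0.25; with library size alone 4 rose and 5 fell, median 0.02), with Crem at 0.43 (SE 0.09), Maff at 0.37 (SE 0.04), Maf at -2.14 (SE 0.07) and Jdp2 at -1.54 (SE 0.04). DKO against Null MEFs gave 4 higher and 3 lower without etoposide (median 0.04), a balance that turned with library size alone to 3 and 5 (median -0.08). After etoposide 5 were higher and 4 lower (median 0.10). In the interaction 6 were higher and 3 lower (median 0.22), the lowest being Mafk (-1.51, SE 0.05) and Crem (-0.94, SE 0.12).

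The MAP kinase cascade above AP-1, which phosphorylates JUN and the factors that switch on Fos, gave 15 tested genes of 16, and Mapk10, with 0 to 22 counts, was not tested. Etoposide lowered 13 and raised 2 in Null MEFs (median -0.23), but only 7 were lower with library size alone. Mapk13 (1.17, SE 0.25) and Mapk9 (0.70, SE 0.04) rose there, and Map2k6 (-1.31, SE 0.18) and Mapk11 (-0.77, SE 0.07) fell. In DKO MEFs 8 fell and 3 rose (median -0.15), a balance that turned with library size alone to 4 and 8 (median 0.12). Between the untreated genotypes 9 were higher in DKO MEFs and 3 lower (median 0.13; 5 and 4 genes with library size alone), with Mapk13 at 3.27 (SE 0.19) and Mapk11 at -1.56 (SE 0.08). After etoposide 5 were higher and 4 lower (median 0.01), which with DESeq2 size factors were 4 and 5. The interaction gave 6 higher and 4 lower (median 0.03), and 5 of each with those factors.

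Serum response factor and its partners, which act at the CArG box of Fos and other early genes, were 6 genes. All 6 fell with etoposide in Null MEFs (median -0.83), where 37.2% of all genes fell. Srf was at -1.73 (SE 0.04) and Mkl1 at -1.49 (SE 0.07). In DKO MEFs all 6 fell as well (median -1.37), with Elk3 at -2.00 (SE 0.04), Mkl1 at -1.87 (SE 0.07) and Srf at -1.76 (SE 0.04), although 1 did not pass with library size alone. Fos rose in both genotypes. All 6 were higher in untreated DKO than in Null MEFs (median 0.41), and 4 were higher and 1, Elk3 (-0.29, SE 0.04), was lower after etoposide (median 0.32). In the interaction (median -0.07) Elk3 (-1.19, SE 0.05) and Mkl1 (-0.37, SE 0.09) were lower and 0 were higher, against 2 higher with library size alone.

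Genes known as AP-1 targets in fibroblasts, 17 in number, include proteases, growth factors and cytokines. In Null MEFs 4 rose and 9 fell with etoposide (median -0.36), and with library size alone 6 rose and 9 fell (median -0.19). Plau (2.10, SE 0.04) and Il6 (1.70, SE 0.25) rose the most, and Vegfa (-1.84, SE 0.04) and Hbegf (-1.27, SE 0.04) fell the most. In DKO MEFs 4 rose and 12 fell (median -1.03), with Ccl2 at -3.18 (SE 0.05), Vegfa at -2.67 (SE 0.04) and Lif at -1.79 (SE 0.04). Mmp9 was among the rises, from 3 to 8 counts in DKO control to 17 to 43 in DKO etoposide, beside 74 to 92 in Null control and 50 to 99 in Null etoposide. Untreated DKO MEFs had 12 targets higher and 4 lower (median 0.56), with Mmp13 at 3.55 (SE 0.08) and, among the lower ones, Mmp9 at -4.07 (SE 0.42), on the few counts just given, and Ccnd1 at -2.62 (SE 0.06). After etoposide 5 were higher and 10 lower (median -0.11), with Mmp13 at 3.45 (SE 0.09) among the higher. The lowest was Ccnd1 (-2.67, SE 0.05), followed by Plau (-2.16, SE 0.04) and Ccl2 (-2.02, SE 0.05). The interaction gave 3 higher and 10 lower (median -0.49), Mmp9 the highest at 2.84 (SE 0.59). Plau, the gene of urokinase, had mean levels of 40.8 CPM in Null control, 113 in DKO control, 174.9 in Null etoposide and 39.1 in DKO etoposide, the same order of groups as Junb and Atf3, and its interaction was -3.64 (SE 0.05). Lif had 254, 740.1, 212 and 213 CPM in the same order, with DKO control the highest as for Fosl2.

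**Figure D4:**
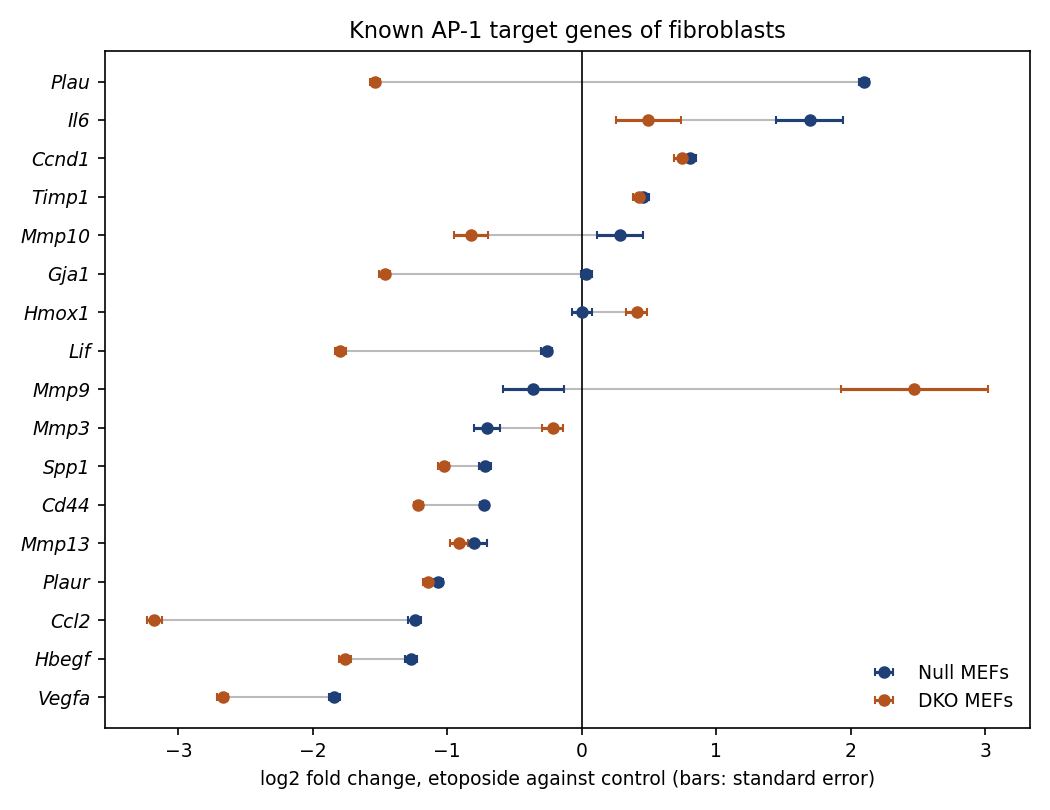
Log2 fold change with etoposide of 17 known AP-1 target genes, with bars of 1 SE on each side: one axis names the genes, the other is the log2 fold change, and the colours are Null and DKO MEFs. Plau stands at 2.10 in Null MEFs and on the other side of 0 in DKO MEFs, and Vegfa lies at -1.84 and -2.67.

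Genes known to induce Atf3 were a list of 5. With etoposide, Trp53 rose in Null (0.24, SE 0.04) and DKO MEFs (0.21, SE 0.04), while Ddit3 (-1.73 and -1.61, SE 0.04 each) and Atf4 (-1.22 and -1.01, SE 0.03 each) fell in both. In Null MEFs 1 of the 5 rose and 3 fell (median -0.25), Cebpb among them at -0.25 (SE 0.09), a call lost with library size alone. In DKO MEFs 1 rose and 3 fell (median -0.46), with Egr1 at -0.46 (SE 0.12), also lost with library size alone. Untreated DKO MEFs had 1 higher, Ddit3 (0.12, SE 0.04), which did not pass with library size alone, and 2 lower (median -0.09), and after etoposide 1 was higher and 3 lower (median -0.13). In the interaction (median 0.08) Atf4 alone passed (0.22, SE 0.05), and with library size alone Ddit3 passed too.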

How the data were processed

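The authors deposited raw counts per gene, which their processing notes trace to HISAT2 alignment to mm10 and featureCounts. The study's methods name HTSeq for the counting instead, and the summary lines deposited with the counts have the HTSeq form. In each library 53.4% to 63.1% of all counts fell on genes, 20.2% to 27.3% on no feature, 0.428% to 0.513% were ambiguous and 15.9% to 20.5% were not uniquely aligned. Counts were fitted with edgeR 4.0.16 in R 4.3.3 (TMM scaling, filterByExpr, a quasi-likelihood fit with a factor of 4 groups, 5 contrasts, Benjamini-Hochberg adjustment, threshold 0.05), and the fit was tested on simulated data, where false calls exceeded the share that the threshold sets, so the adjusted p-values may be somewhat too small. TMM factors lay between 0.884 and 1.09. Levels per length used the union of GENCODE exons on GRCm38. Alternatives were DESeq2 1.42.0, limma-trend 3.58.1 with a prior count of 2, DESeq2 size factors, library size alone, no filter, a stricter filter (mean of 1 CPM), a replicate block, only the 6 libraries compared, and leaving out each library. Members and lists were chosen with earlier results of these data known. Named genes were the 8 members, Tfeb, Tfe3, up to 3 rises and 3 falls per list and comparison, and untested genes of a list. The 3 genes most like each member with a mean of at least 10 CPM were also named. Cell type markers and genes that share exon bases with a member were named as well. The form of the quasi-likelihood fit was settled after both forms had been run. From the list of AP-1 targets, 1 gene is not reported.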

Additional observations from a re-analysis of the deposited data

Results flagged for a closer look

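For each of the 8 genes the response to etoposide differed between the genotypes in a test of the difference itself, the interaction in the edgeR fit. The response in DKO MEFs minus that in Null MEFs, on the log2 scale, was -1.36 for Fos, -2.18 for Fosb, -0.76 for Fosl1 and -1.92 for Fosl2. In the JUN group it was -1.75 for Jun, -1.14 for Junb and 0.44 for Jund, and for Atf3 it was -1.38. Among all tested genes 24.4% had a negative and 29.6% a positive difference past the threshold, a balance that turned with DESeq2 size factors (4192 negative and 3797 positive). With 1 line per genotype, the knockout and other differences between the lines cannot be told apart.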

How the results depend on the processing

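Over 640 values of the members under the alternatives, 633 kept their direction and their side of the threshold, 3 lost the call, 4 gained it and 0 changed direction. The losses were Fosb between the untreated genotypes with limma-trend, and Fosl1 in Null and Jun in DKO MEFs with library size alone. The gains were Jund in Null MEFs with DESeq2, library size alone and the stricter filter, and Fos between the untreated genotypes without replicate 1 of Null control (0.29, and 0.03 without replicate 3). With library size alone, 1 member was lower in Null MEFs with etoposide against 2 with TMM, and 3004 genes were lower in DKO MEFs against 4790. The share of higher genes among all that passed went from 53.2% to 64.0% in Null and from 58.1% to 75.6% in DKO MEFs with etoposide, from 49.9% to 38.4% between the untreated genotypes and from 54.8% to 65.2% in the interaction; the cause was not tested. DESeq2 size factors turned the balance in the interaction (47.5% higher) and, with 5072 higher and 6096 lower, between the genotypes after etoposide, where TMM gave 50.6% higher.

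Counts of the other lists were also made with each scaling, an alternative chosen after seeing the data. Library size alone gave 5 bZIP relatives lower in DKO MEFs with etoposide (against 8) and 5 lower between the untreated genotypes (against 3). In the MAP kinase cascade it gave 7 lower in Null MEFs (against 13), 8 higher and 4 lower in DKO MEFs (against 3 and 8), and 5 higher between the untreated genotypes (against 9). Of the Atf3 inducers 0 were higher between the untreated genotypes (against 1) and 2 in the interaction (against 1). Of the serum response factor list 2 were higher in the interaction (against 0), and of the AP-1 targets 6 in Null MEFs (against 4). Medians with etoposide moved as well, for the MAP kinase cascade in Null MEFs to -0.07 (against -0.23). Those of the Atf3 inducers moved to -0.08 in Null (against -0.25) and -0.18 in DKO MEFs (against -0.46).

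The replicate block, which treats equal replicate numbers as pairs, left all counts of members as they were and gave 6460 genes higher and 5651 lower in Null MEFs with etoposide; over 18 pairs of libraries with equal numbers, the residuals correlated by at most 0.0429. The older form of the quasi-likelihood fit, added after seeing the data, gave 6342 and 5598 and the same calls for all members. With the longest transcript as the length, Fosl1 held 58.1% of the FOS group in Null control, Fosl2 57.5% in DKO control, and Fosb 4.48% in Null etoposide. That length, chosen after seeing the data for the order of levels, gave ratios of JUN to FOS levels of 6.05 in Null control, 5.01 in DKO control, 8.86 in Null etoposide and 11.2 in DKO etoposide. Over the members 24 names were given as most like, with Tubb6 given for both Junb and Atf3. Of these names, 5 were also given with Spearman's correlation and 24 with a prior count, an alternative chosen after seeing the data. Every member had at least 418 counts in each library, and the effect of depth on the members was not tested. With 3 libraries per group the precision of each SD is limited.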
